A study of Mus musculus with 20 samples.

Results

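The genes described are 10 genes of renal calcium handling and the Klotho and vitamin D axis, chosen by name from the 27827 gene names of the array: Kl, Fgfr1, Vdr, Casr, Trpv5, Trpv6, Calb1, S100g, Stc1 and Stc2. All 10 were on the array, with 16 probes in all. Kidney RNA of male C57BL/6 mice aged 8 to 12 weeks was measured in 5 groups of 4 arrays. Control mice had neither surgery nor drug. IRI mice had both renal pedicles clamped for 45 min, followed by 6 h of reperfusion. IRI+Hemin mice had the same surgery 24 h after 25 mg/kg of Hemin, an inducer of heme oxygenase 1, given intraperitoneally. IPC+IRI mice had 15 min of ischemia 7 days before the same 45 min of ischemia, and Hemin mice had the drug without surgery. Control mice were not operated on, so surgery and ischemia cannot be told apart. The labels do not say whether each array stands for a separate mouse, and p-values then measure the spread between these samples.

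In the distal convoluted and connecting tubule, calcium enters the cell through the channels TRPV5 and TRPV6, is carried by the binding proteins calbindin-D28k (Calb1) and calbindin-D9k (S100g), and leaves by the sodium-calcium exchanger and the calcium pump. The vitamin D receptor raises the transcription of several of these genes. Klotho, made mainly in the distal tubule, is the coreceptor that lets FGF23 signal through FGFR1 and lower phosphate and vitamin D, and it also keeps TRPV5 at the cell surface. The calcium-sensing receptor (Casr) acts in the thick ascending limb, and the stanniocalcins Stc1 and Stc2 are secreted glycoproteins of calcium and phosphate balance.

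Expression is given as log2 of the processed signal over the array's 75th percentile, so that 0 is this percentile, and a change is a difference of group means in log2 units with its SE. Calls rest on limma with an adjusted p under 0.05. For 4 arrays that do not overlap with 4 others, an exact two-sided permutation test returns 0.029, its smallest p in this design. In whole tissue, fewer cells of a type and less RNA per cell cannot be told apart. Every group had a slide of its own, and the part of the slide cannot be told apart from that of the group. The scans took 3 days: the first held the Control and IRI slides, the second IRI+Hemin, and the last both remaining slides. Comparisons within a day are therefore IRI vs Control and IPC+IRI vs Hemin. The 75th percentile lay between 146.7 and 220.5 intensity units in Control, between 162.1 and 280.8 in IRI and between 173.8 and 357.9 in IRI+Hemin. It lay between 221.6 and 303.7 in IPC+IRI and between 255.7 and 323.5 in Hemin, above every Control array, so that the scaling ran with the group, and precision is limited by the 4 arrays per group. Hmox1, the gene that the drug is given to induce, was not called in Hemin vs Control (0.56 ± 0.47, adjusted p = 0.371), while it was higher by 4.67 ± 0.47 in IRI (adjusted p = 6.80e-07). The injury markers Lcn2 and Havcr1 were at 5.06 ± 0.44 (adjusted p = 1.34e-07) and 0.79 ± 0.33 (adjusted p = 0.0555) in IRI vs Control. All 6 markers of the distal convoluted and connecting tubule, among them Slc12a3 and Pvalb, were well above background on every array. All 10 genes were well above background on every array in at least 1 probe, except Stc2 on 2 of the 4 IRI arrays.

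The renal calcium genes did not move as a block. The channel Trpv6 was up-regulated in all 3 groups with ischemia and the hormone Stc1 in IRI, Calb1 fell in IRI+Hemin, and Vdr and Casr were not called in any of the 8 comparisons. Stc1 was called higher in IRI+Hemin and IPC+IRI and Kl lower in 3 of the 4 treated groups, but the probes of each parted and the direction of Stc1 in both groups, and of Kl in IPC+IRI and Hemin, turned in at least 1 other setting. In IRI vs Control, 3 of the 10 genes were higher (Trpv5, Trpv6 and Stc1) and 1 was lower, beside 16.5% and 32.9% of all genes tested. The lower gene was Stc2, with 2 of the 4 IRI arrays well above background and a direction that turned in 1 other setting. In IRI+Hemin vs Control, 2 were higher and 3 lower, beside 23.8% and 32.4%. In IPC+IRI vs Control, 2 were higher and 1 lower, beside 22.6% and 32.1%. With 10 genes, these counts give no result about the list as a whole, and the results that follow concern single members. In Hemin vs Control, 2 were higher (Trpv6 and Stc2) and 2 lower (Kl and Trpv5), beside 17.5% and 17%. No member was called in the interaction of Hemin and IRI, which asks whether the change with Hemin differs with and without ischemia, where 5.34% of all genes were called higher and 1.61% lower.

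Set against IRI, both pretreated ischemic groups had 1 gene of the list higher and 4 lower. The higher gene was Stc2, which was well above background on only 2 of the 4 IRI arrays and was tested through the group where it is high. In IRI+Hemin vs IRI the lower genes were Kl, Trpv5, Calb1 and Stc1, beside 17.4% of genes lower and 25.3% higher among all those tested. In IPC+IRI vs IRI they were Kl, Fgfr1, Trpv5 and Stc1, beside 17% lower and 25.1% higher. These 2 comparisons share the IRI arrays. Within the day that holds IPC+IRI and Hemin, Trpv5, Trpv6 and Stc1 were higher in IPC+IRI, 3 of 10 beside 12.7% of all genes, and none was lower, beside 21.8%. The members called higher in IRI vs Control were Trpv5, Trpv6 and Stc1 as well. IPC+IRI and Hemin differ in ischemia, preconditioning, drug and slide at once, so that this comparison is no repeat of IRI vs Control. Against Control, Trpv5 was at -0.41 ± 0.19 in IPC+IRI (not called) and at -0.98 ± 0.19 in Hemin. In IRI+Hemin vs Hemin, which crosses days, 3 were higher, beside 15.8%, and 3 lower, beside 26.8%. Over the 10 genes the median change was 0.02 in IRI vs Control, where the median over all 17711 genes was -0.17, and 0.20 in IPC+IRI vs Hemin, where it was -0.15.

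The arrays of 2 groups did not overlap for 2 genes higher (Trpv6 and Stc1) and 1 lower (Stc2, partly at background in IRI) in IRI vs Control, beside 14.8% and 31.3% of all genes. In IRI+Hemin vs Control this held for 1 higher and 2 lower, beside 19.8% and 27.4%. In IPC+IRI vs Control it held for 2 higher (Trpv6 and S100g) and 1 lower (Kl), beside 17.7% and 27.4%, and S100g was not called there. It held for 1 higher and 4 lower in IRI+Hemin vs IRI, beside 23.4% and 15.5%, and for 1 higher and 1 lower in IPC+IRI vs IRI, beside 22.2% and 15.7%, the higher gene being Stc2 in both. In Hemin vs Control it held for 2 and 2, beside 19.5% and 18.1%. In IRI+Hemin vs Hemin it held for 3 and 3, beside 17.1% and 27.6%, among them Fgfr1 (higher) and Stc2 (lower), which were not called. In IPC+IRI vs Hemin it held for 3 higher and none lower, beside 14% and 24.7%.

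**Figure D1:**
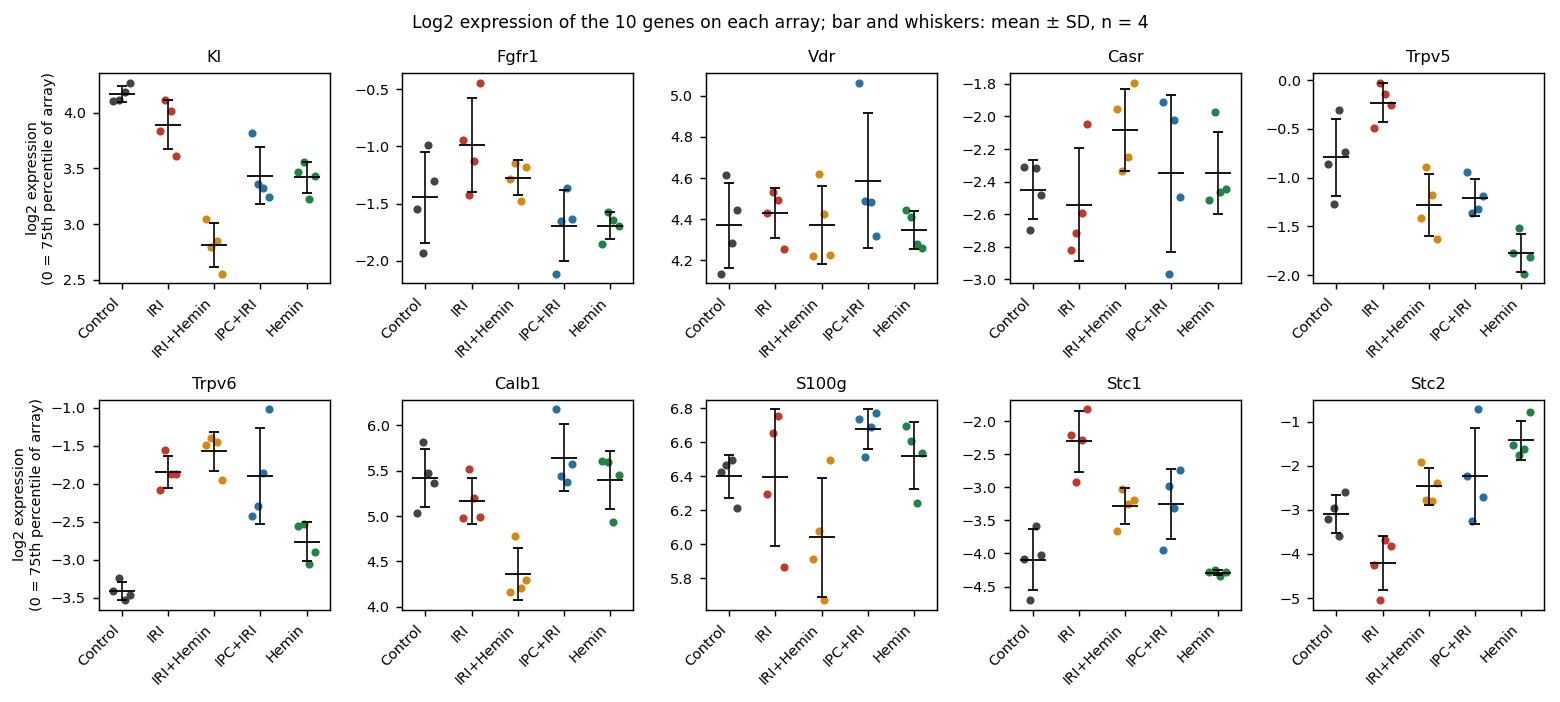
Log2 expression of the 10 genes (y axis, 0 is the array's 75th percentile; each panel has its own scale) on each of the 4 arrays of the 5 groups (x axis), with the mean and SD. The Control arrays of Trpv6 lie between -3.53 and -3.25, below all other arrays, while the groups of Vdr overlap throughout.

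Of the entry channels, Trpv6 rose in all 3 ischemic groups against Control, while Trpv5 rose in IRI and fell in IRI+Hemin. Trpv6, a calcium channel of high selectivity, was at -3.53, -3.46, -3.41 and -3.25 on the Control arrays and at -2.08, -1.87, -1.87 and -1.56 on the IRI arrays. It was at -1.95, -1.50, -1.45 and -1.40 in IRI+Hemin, at -2.43, -2.29, -1.86 and -1.02 in IPC+IRI, and at -3.05, -2.91, -2.56 and -2.54 in Hemin. Every ischemic array lay above every Control and Hemin array, and the Hemin arrays lay between. The rise was 1.56 ± 0.24 in IRI (2.96-fold, adjusted p = 4.16e-05), 1.84 ± 0.24 in IRI+Hemin (adjusted p = 6.74e-06) and 1.51 ± 0.24 in IPC+IRI (adjusted p = 5.01e-05), each with groups that did not overlap. The call in IPC+IRI was lost with normexp background, where the change was 0.40. Over all settings the rise of Trpv6 ran from 0.69 to 1.89 in IRI and from 0.62 to 2.32 in IRI+Hemin. Within the other scan day, IPC+IRI lay 0.87 ± 0.24 above Hemin (adjusted p = 0.00914, called in 16 of 19 settings). Hemin alone was 0.65 ± 0.24 above Control (adjusted p = 0.0422), a call that 10 of 19 other settings lost, among them leaving out Control replicates 1, 3 or 4 or Hemin replicates 1, 2 or 4, and with normexp background the change turned to -0.0468. Summed neutrophil markers, of which 1 to 3 of 5 were well above background throughout a group, ran from -2.17 to -0.81 in Control and from 1.31 to 3.02 in IRI (log2). The sums ran from 1.09 to 3.26 in IRI+Hemin, from 2.66 to 4.27 in IPC+IRI and from -1.22 to 0.63 in Hemin, and their part in the rise of Trpv6 and Stc1 was not tested. Neither treated ischemic group was called against IRI: IRI+Hemin vs IRI gave 0.27 (95% interval -0.22 to 0.77) and IPC+IRI vs IRI gave -0.05 (-0.55 to 0.45).

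The proximal sequence of Trpv6 is shown because it is a member that rose in every ischemic group, and because the vitamin D receptor binds as a partner of RXR to pairs of short nuclear receptor motifs. The RefSeq promoter tables held 7 of the 10 genes (not Fgfr1, Calb1 or Stc1). The 250 bases before the annotated start of Trpv6 lie on the minus strand at chr6:41636406-41636655 (GRCm38.p6), and capitals mark matches to AGGTCA on either strand.
Trpv6: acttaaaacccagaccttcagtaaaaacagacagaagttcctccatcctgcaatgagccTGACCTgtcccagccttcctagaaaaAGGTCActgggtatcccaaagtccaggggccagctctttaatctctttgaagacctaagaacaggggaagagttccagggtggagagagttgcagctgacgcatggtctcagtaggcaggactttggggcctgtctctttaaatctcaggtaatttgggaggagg
The window held AGGTCA in 2 places, one on each strand. Among the 32851 windows of the same length, 14% held AGGTCA on either strand. The window of S100g held it in 2 places as well, and those of Kl, Vdr, Casr, Trpv5 and Stc2 did not hold these letters. A match of letters is a description of the sequence and not a measured binding site.

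Trpv5, the channel of the distal convoluted tubule that Klotho acts on, lies near Trpv6 on chromosome 6 but followed another order of groups. It was at -1.26, -0.86, -0.73 and -0.31 in Control, at -0.49, -0.26, -0.14 and -0.03 in IRI and at -1.63, -1.42, -1.18 and -0.89 in IRI+Hemin. It was at -1.36, -1.32, -1.19 and -0.94 in IPC+IRI and at -1.98, -1.81, -1.77 and -1.52 in Hemin. IRI was the highest group and overlapped with Control alone, and Hemin was the lowest group and overlapped only with IRI+Hemin. Trpv5 was higher in IRI than in Control by 0.56 ± 0.19 (adjusted p = 0.0212), a call lost in 5 of 19 settings, among them leaving out Control replicate 2 or IRI replicate 2. It fell in Hemin vs Control by 0.98 ± 0.19 (adjusted p = 0.00119), in IRI+Hemin vs IRI by 1.05 ± 0.19 (adjusted p = 3.90e-04) and in IPC+IRI vs IRI by 0.97 ± 0.19 (adjusted p = 7.12e-04), and these 3 cross scan days. Without scaling between arrays these 3 calls were lost, with changes of -0.41, -0.69 and -0.66. Within a day, IPC+IRI was 0.57 ± 0.19 above Hemin (adjusted p = 0.0289, lost in 8 of 19 settings). The fall of 0.49 ± 0.19 in IRI+Hemin vs Control (adjusted p = 0.0378) was lost in 10 of 19 settings. The interaction of Hemin and IRI was -0.07 for Trpv5 (95% interval -0.64 to 0.50).

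The binding protein Calb1 marked a single group. Calb1 was at 5.03, 5.36, 5.47 and 5.82 in Control, at 4.98, 4.99, 5.19 and 5.52 in IRI and at 4.16, 4.20, 4.30 and 4.78 in IRI+Hemin. It was at 5.37, 5.44, 5.57 and 6.18 in IPC+IRI and at 4.93, 5.45, 5.59 and 5.61 in Hemin. Every IRI+Hemin array lay below every array of the other groups. Calb1 fell in IRI+Hemin by 1.06 ± 0.22 from Control (2.08-fold, adjusted p = 5.03e-04), by 0.81 ± 0.22 from IRI (adjusted p = 0.00619, lost without scaling at -0.45) and by 1.04 ± 0.22 from Hemin (adjusted p = 0.00107), and was not called in IRI (-0.25 ± 0.22) or Hemin (-0.02 ± 0.22) against Control. The interaction was -0.78 ± 0.30, with an adjusted p of 0.138. IRI+Hemin is the only group of its slide and of its scan day. S100g, the intestinal form of calbindin that mouse distal tubule also makes, ranged from 5.67 to 6.77 over the 20 arrays and was not called against Control or IRI. Its group means were lowest in IRI+Hemin (6.04 ± 0.35) and highest in IPC+IRI (6.68 ± 0.12), and IRI+Hemin lay 0.48 ± 0.19 below Hemin (adjusted p = 0.0468).

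Of 14526 genes measured well on all arrays, those whose log2 expression ran most like that of Calb1 were Slc8a1 (Pearson r = 0.943 over 20 arrays) and Pvalb (r = 0.940). Slc8a1 is the exchanger that carries calcium out of the same cells, and Pvalb is the calcium-binding parvalbumin of the early distal convoluted tubule. With group means taken away, r was 0.928 for Slc8a1 and 0.831 for Pvalb, as a description over arrays that share slides. Slc8a1 was at -1.16, -0.89, -0.69 and -0.54 in Control and at -3.03, -2.93, -2.87 and -2.31 in IRI+Hemin. It fell by 1.97 ± 0.23 in IRI+Hemin vs Control (adjusted p = 2.76e-06) and by 0.93 ± 0.23 in IRI vs Control (adjusted p = 0.00291), and Pvalb fell by 1.96 ± 0.28 in IRI+Hemin (adjusted p = 1.99e-05). Slc12a3, the thiazide-sensitive cotransporter of the same segment, was not called in IRI+Hemin vs Control (0.32 ± 0.22, adjusted p = 0.223). The summed signal of the 6 markers of the distal convoluted and connecting tubule ranged from 3.5005 to 4.20 in Control and from 3.57 to 4.01 in IRI+Hemin (log2), a sum carried by Slc12a3. The sum of the other 5 ranged from 2.35 to 2.65 in Control, from 1.20 to 1.45 in IRI, from 1.45 to 1.85 in IRI+Hemin, from 1.74 to 2.76 in IPC+IRI and from 2.34 to 2.63 in Hemin, and was lower in both IRI and IRI+Hemin than on every Control array. Of the 6 markers, 3 were lower and none higher in IRI+Hemin vs Control, beside 32.4% and 23.8% of all genes, and 4 were lower and none higher in IRI vs Control, beside 32.9% and 16.5%, where Calb1 was not called. Their part in the change of Calb1 was not tested.

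**Figure D2:**
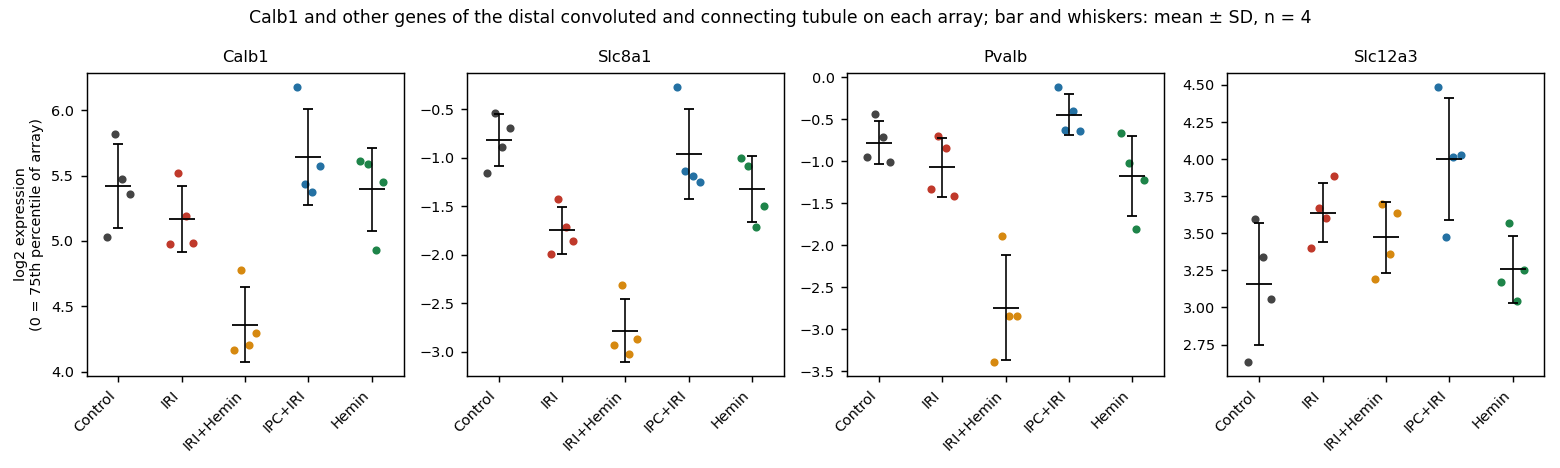
Log2 expression (y axis, own scale per panel) of Calb1, Slc8a1, Pvalb and Slc12a3 on each array of the 5 groups, with mean and SD (n = 4). The IRI+Hemin arrays of Calb1, Slc8a1 and Pvalb are the lowest of the 5 groups, and those of Slc12a3 lie between 3.19 and 3.70, among the other groups.

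The gene value of Kl (Klotho), carried by the brighter of its probes, was called lower than Control in every group but IRI. Kl was at 4.11, 4.12, 4.18 and 4.27 in Control and at 3.61, 3.84, 4.01 and 4.12 in IRI. It was at 2.55, 2.80, 2.85 and 3.04 in IRI+Hemin, at 3.24, 3.32, 3.36 and 3.82 in IPC+IRI and at 3.23, 3.43, 3.47 and 3.56 in Hemin. IRI+Hemin lay below all other groups without overlap, and Hemin and IPC+IRI lay on each other. The fall was 1.36 ± 0.14 in IRI+Hemin vs Control (2.57-fold, adjusted p = 1.01e-06), 0.74 ± 0.14 in IPC+IRI vs Control (adjusted p = 3.75e-04) and 0.75 ± 0.14 in Hemin vs Control (adjusted p = 0.00108). It was 1.08 ± 0.14 in IRI+Hemin vs IRI (adjusted p = 3.26e-05) and 0.46 ± 0.14 in IPC+IRI vs IRI (adjusted p = 0.0165, lost in 7 of 19 settings). Within a scan day the differences were smaller and not called: -0.28 ± 0.14 in IRI vs Control (adjusted p = 0.122) and 0.01 ± 0.14 in IPC+IRI vs Hemin (95% interval -0.29 to 0.32). With log2 values averaged over probes the change in IPC+IRI and Hemin vs Control was 0.12 and 0.0644, and in the deposited matrix, where the brighter probe is blank on 3 arrays, it was 0.47 and 0.58, so that the direction turned. In that matrix IRI+Hemin and IPC+IRI vs IRI turned as well, to 1.22 and 1.78, and IRI+Hemin vs Control was -0.0899 and lost its call. On an array where the brighter probe is blank, the gene value there is that of the dimmer probe alone. By itself, the brighter probe changed by -1.13 in IRI+Hemin vs IRI and -0.51 in IPC+IRI vs IRI. The dimmer probe changed by -2e-04 and 0.69, so that neither reached the values of that matrix. All called changes of Kl cross scan days, and the part of the day in them cannot be told apart from that of the group.

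Kl had 2 probes on the array, and they did not move together. A_52_P439358, annotated to the Kl mRNA, lies on chromosome 5 at 151795712 to 151795771 (mm9) and gave the changes above, being much the larger signal in the mean of both. A_52_P112159, which the array annotation assigns to the secreted isoform, lies at 151789486 to 151789545. Its values were -1.09, -0.76, -0.73 and -0.22 in Control, -0.61, -0.44, -0.34 and -0.04 in IRI and -0.50, -0.47, -0.23 and -0.22 in IRI+Hemin. They were 0.24, 0.25, 0.27 and 0.59 in IPC+IRI and -0.08, 0.28, 0.30 and 0.44 in Hemin, the 2 groups of 1 scan day, above all Control arrays. This probe was higher than Control by 1.03 ± 0.18 in IPC+IRI (adjusted p = 1.03e-04) and by 0.93 ± 0.18 in Hemin (adjusted p = 8.72e-04), where the other probe fell by 0.80 ± 0.15 (adjusted p = 2.65e-04) and 0.81 ± 0.15 (adjusted p = 8.41e-04). The difference of both probes within an array, in log2 units, was 5.84 ± 0.38 in Control and 5.21 ± 0.14 in IRI. It was 4.08 ± 0.35 for IRI+Hemin arrays, 4.01 ± 0.11 for IPC+IRI arrays and 4.11 ± 0.15 for Hemin arrays. The 3 groups of the later days, which are also the groups with Hemin or preconditioning, had similar differences with and without ischemia. The smallest p that exact tests of 4 with 4 arrays gave for the change, adjusted over 40 such comparisons, was 0.0571. A change of the isoforms with Hemin or preconditioning, of the day and of the slide cannot be told apart here.

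The Kl promoter is shown because Kl was called against Control in 3 groups. The 250 bases before its start lie on the plus strand at chr5:150952357-150952606 (GRCm38.p6), with capitals for the GC box GGGCGG on either strand.
Kl: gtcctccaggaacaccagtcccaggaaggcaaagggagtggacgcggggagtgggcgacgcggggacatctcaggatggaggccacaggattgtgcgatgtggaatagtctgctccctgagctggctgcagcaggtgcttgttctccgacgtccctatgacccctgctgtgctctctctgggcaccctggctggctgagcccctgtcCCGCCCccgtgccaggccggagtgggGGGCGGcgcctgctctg
The window held the GC box in 2 places, while 32.7% of all windows held it at least once. Its GC content was 66.8%, where the median window had 52.4%. The letters TATAAA of a TATA box, found in 12.4% of all windows, were on neither strand.

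**Figure D3:**
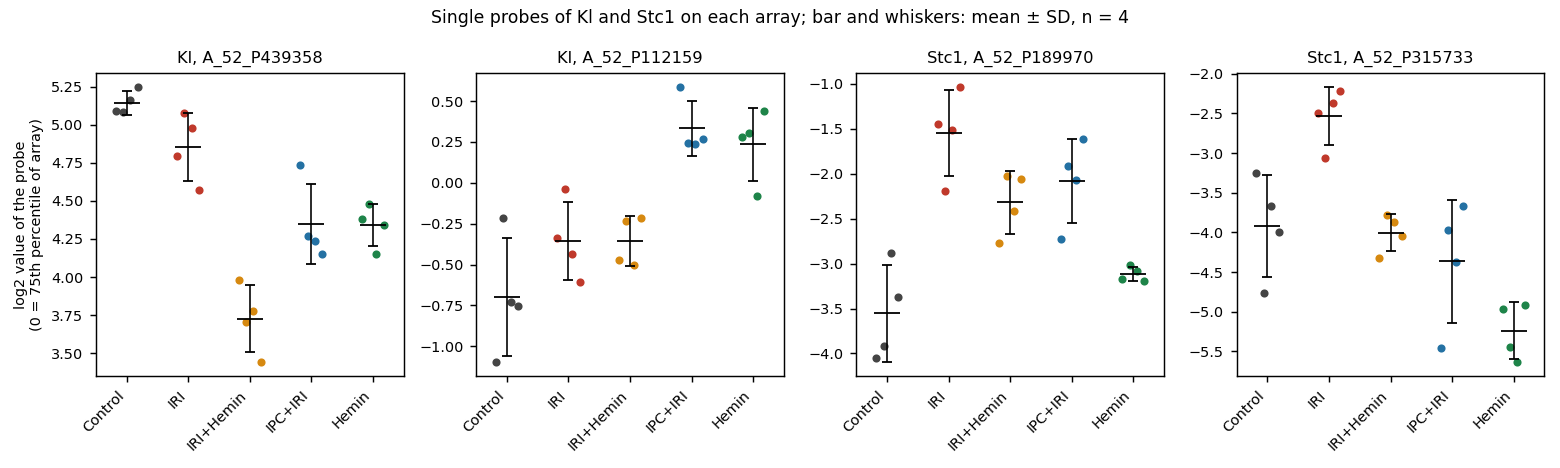
Log2 value (y axis, own scale per panel) of 2 probes of Kl and 2 probes of Stc1 on each array of the 5 groups, with mean and SD (n = 4). The first probe of Kl is highest in Control (5.15 ± 0.08), and the second is highest in IPC+IRI (0.33 ± 0.17); the second probe of Stc1 was well above background on none of the 4 Hemin arrays.

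Neither Vdr nor Casr was called, and Fgfr1 was called in 1 comparison. Vdr, the nuclear receptor that binds active vitamin D, ranged from 4.14 to 5.06 over the 20 arrays. Its change against Control was 0.06 in IRI (95% interval -0.26 to 0.38), 0.00 in IRI+Hemin (-0.32 to 0.32), 0.22 in IPC+IRI (-0.10 to 0.54) and -0.02 in Hemin (-0.34 to 0.30). All 5 groups of Vdr overlapped, and the intervals leave room for changes of up to 0.54. Casr ranged from -2.97 to -1.79 and was not called in any comparison, with the highest mean in IRI+Hemin (-2.08 ± 0.25) and the lowest in IRI (-2.54 ± 0.35). Fgfr1, the FGF receptor that Klotho joins, was at -1.43, -1.13, -0.94 and -0.44 in IRI and at -2.11, -1.66, -1.64 and -1.36 in IPC+IRI. It was lower in IPC+IRI than in IRI by 0.71 ± 0.21 (adjusted p = 0.0126) with 1 array of IPC+IRI inside the range of IRI. This call was lost without scaling, at -0.39, and in the deposited matrix. Its change in IRI vs Control was 0.46 ± 0.21 (adjusted p = 0.0796).

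The 4 probes of Fgfr1 split. A pair of them overlap by 39 bases and are printed because 2 probes read the same stretch, at 26684042 to 26684101 and 26684063 to 26684122 of chromosome 8 (mm9, plus strand), with the base that differs in capitals.
A_51_P109469: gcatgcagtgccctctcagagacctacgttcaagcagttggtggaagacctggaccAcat
A_52_P668810: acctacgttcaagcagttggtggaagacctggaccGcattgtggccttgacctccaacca
Counted from the 5′ end of A_51_P109469, the difference is A57G. In IPC+IRI vs IRI, the first fell by 0.77 ± 0.21 (adjusted p = 0.00698) and the second by 0.58 ± 0.21 (adjusted p = 0.0335). A_52_P136162 fell by 1.44 ± 0.32 (adjusted p = 0.00162), and A_52_P552062, at 26642756 to 26642815, changed by -0.15 ± 0.23 (adjusted p = 0.613). In IRI vs Control, A_51_P109469 was called higher by 0.55 ± 0.21 (adjusted p = 0.0407), while A_52_P552062 was at -0.28 ± 0.23 (adjusted p = 0.336). In Hemin vs Control, A_52_P552062 fell by 0.67 ± 0.23 (adjusted p = 0.0335), and the other 3 were not called. In IRI+Hemin vs IRI, where the gene was not called, A_52_P136162 was at -1.02 ± 0.32 (adjusted p = 0.01495, called). A_52_P552062 was at 0.32 ± 0.23 there (adjusted p = 0.273).

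Stc1, a stanniocalcin that acts in the kidney on calcium and phosphate and on mitochondria, had the largest rise of the list in IRI vs Control. It was at -4.70, -4.08, -4.02 and -3.58 in Control and at -2.92, -2.28, -2.20 and -1.82 in IRI. It was at -3.66, -3.26, -3.19 and -3.02 in IRI+Hemin, at -3.95, -3.32, -2.98 and -2.74 in IPC+IRI and at -4.35, -4.28, -4.28 and -4.25 in Hemin. IRI lay above Control without overlap, and both treated ischemic groups lay between, each overlapping with Control by 1 array or more. The rise was 1.79 ± 0.27 in IRI (3.46-fold, adjusted p = 3.56e-05), 0.82 ± 0.27 in IRI+Hemin (adjusted p = 0.0149) and 0.85 ± 0.27 in IPC+IRI (adjusted p = 0.0122), while Hemin vs Control gave -0.19 ± 0.27. With normexp background the changes in IRI+Hemin and IPC+IRI were -0.0691 and -0.004, so that both turned, and the first call was also lost without Control replicate 2. The rise in IRI vs Control ran from 0.63 to 2.16 over all settings. Within the later scan day IPC+IRI lay 1.04 ± 0.27 above Hemin (adjusted p = 0.00608, called in 16 of 19 settings). Stc1 was lower than in IRI by 0.98 ± 0.27 in IRI+Hemin (adjusted p = 0.00708) and by 0.95 ± 0.27 in IPC+IRI (adjusted p = 0.00892). Both calls were lost without scaling, at -0.61 and -0.63, and in the deposited matrix.

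Of the 3 probes of Stc1, A_52_P189970 rose in IRI vs Control by 2.01 ± 0.28 (adjusted p = 2.17e-05) and A_52_P315733 by 1.39 ± 0.34 (adjusted p = 0.00312). A_51_P233334 was well above background on no Control array and on 3 of the 4 IRI arrays, and its change is not given. A_52_P189970 and A_52_P315733 parted in the later days: in IPC+IRI vs Control they changed by 1.47 ± 0.28 (adjusted p = 3.03e-04) and -0.44 ± 0.34 (adjusted p = 0.286). In Control each was well above background on 3 of 4 arrays, as was A_52_P315733 in IPC+IRI, and A_52_P315733 was so on no Hemin array. The change in IRI+Hemin and IPC+IRI against Control thus differed by probe, and the rise in IRI was called in both of these probes.

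Stc2, the second stanniocalcin and a gene of the unfolded protein response, was at -3.60, -3.21, -2.97 and -2.59 in Control and at -5.04, -4.25, -3.82 and -3.69 in IRI, with only 2 of the 4 IRI arrays well above background. It was at -2.81, -2.77, -2.38 and -1.92 in IRI+Hemin, at -3.24, -2.70, -2.23 and -0.71 in IPC+IRI and at -1.76, -1.61, -1.53 and -0.77 in Hemin. All IRI arrays lay below all arrays of the other groups. As IRI was partly at background, Stc2 entered the comparisons with IRI only through the other group, and its sizes against IRI are not interpreted. Its call in IRI vs Control was lost in 9 of 18 settings, 5 of which left out Control replicate 1, 2 or 4 or IRI replicate 1 or 2. Neither call against IRI in IRI+Hemin or IPC+IRI could be tested when both groups had to be above background. Between groups that were well above background on all arrays, Stc2 was higher in Hemin than in Control by 1.67 ± 0.43 (adjusted p = 0.00665). With normexp background all 4 calls of Stc2 were lost. The change in IRI vs Control then turned, to 0.0123, and that in Hemin vs Control was 0.43.

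**Figure D4:**
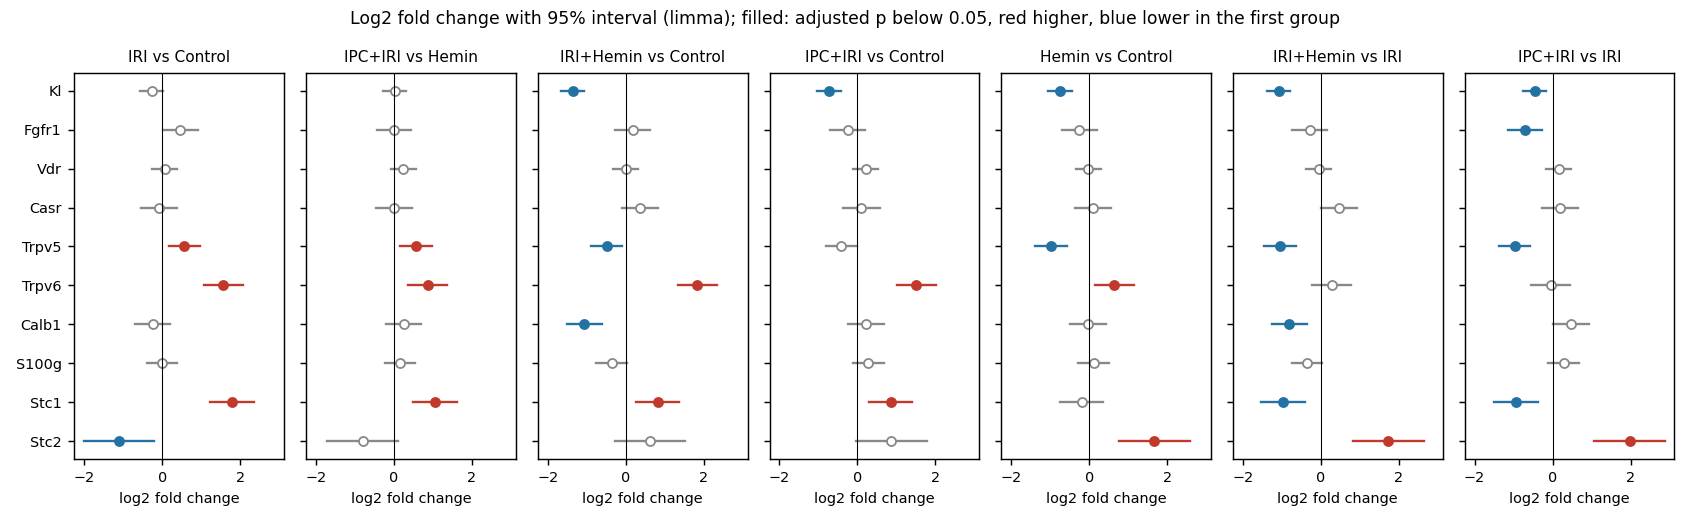
Log2 fold change (x axis) of the 10 genes (y axis) in 7 comparisons, each point with its 95% interval; filled points have an adjusted p below 0.05, red higher and blue lower in the group named first. Trpv6 is to the right of 0 in all 3 ischemic groups against Control (1.51 to 1.84), and all intervals of Vdr cross 0.

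The genes of the surrounding pathways, from 4 lists, were read beside the members. Of 12 genes of vitamin D metabolism and receptor partners, 6 were lower and none higher in IRI vs Control, with a median change of -0.48, where 32.9% of all genes were lower, 16.5% were higher and the median was -0.17. In IRI+Hemin vs Control 1 was higher and 2 lower, beside 23.8% and 32.4% of all genes, and in IPC+IRI vs Control 0 and 3, beside 22.6% and 32.1%. Cyp27b1, the kidney enzyme that makes active vitamin D, fell by 1.44 ± 0.45 in IRI (adjusted p = 0.0134) and by 1.88 ± 0.45 in IPC+IRI (adjusted p = 0.00191), and was -1.04 ± 0.45 in IRI+Hemin (adjusted p = 0.0570). It also fell in Hemin without surgery, by 1.21 ± 0.45 (adjusted p = 0.0452). Its arrays ranged from -2.10 to -0.52 in Control and from -3.03 to -2.79 in IRI. Lrp2, the megalin receptor that takes up vitamin D from the filtrate, changed by -0.95 ± 0.11 in IRI (adjusted p = 1.93e-06), by -0.61 ± 0.11 in IRI+Hemin (adjusted p = 1.22e-04) and by -0.71 ± 0.11 in IPC+IRI (adjusted p = 3.19e-05). Cyp24a1, which breaks active vitamin D down, was at 1.39 in IRI vs Control (adjusted p = 0.0575) and was not called in any comparison. Cyp2r1, a vitamin D 25-hydroxylase, fell by 1.00 ± 0.35 in IRI (adjusted p = 0.0259).

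Of the genes of FGF23 and Klotho signaling, 5 were higher and 1 lower among the 9 tested in IRI vs Control, beside the same 16.5% and 32.9% of all genes, with 2 and 3 of 10 in IRI+Hemin (beside 23.8% and 32.4%) and 3 and 3 of 9 in IPC+IRI (beside 22.6% and 32.1%). The receptor Fgfr2 rose by 1.33 ± 0.23 (adjusted p = 1.66e-04), and the feedback inhibitors Spry2 and Spry1 by 1.04 ± 0.13 (adjusted p = 8.91e-06) and 0.74 ± 0.22 (adjusted p = 0.00890). Among the 10 genes of calcium exit and TRPV5 regulation, 4 were higher and 3 lower in IRI vs Control, 4 and 3 in IRI+Hemin, and 5 and 0 in IPC+IRI, beside the same shares of all genes. The kinase Sgk1 rose by 2.18 ± 0.41 in IRI, by 2.70 ± 0.41 in IRI+Hemin and by 1.84 ± 0.41 in IPC+IRI, and S100a10, which brings TRPV5 and TRPV6 to the membrane with annexin 2, by 2.23 ± 0.19, 2.41 ± 0.19 and 2.02 ± 0.19, all called. Annexin 2 itself (Anxa2) rose by 1.94 ± 0.23 in IRI (adjusted p = 3.67e-06). The calcium pump Atp2b1 was called in IPC+IRI alone of the groups set against Control (0.50 ± 0.15, adjusted p = 0.00818).

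Of the 12 genes of parathyroid hormone action, phosphate and divalent cation transport, 4 were higher and 3 lower in IRI vs Control, 2 and 7 in IRI+Hemin vs Control, and 1 and 5 in IPC+IRI vs Control. All genes tested were higher and lower in 16.5% and 32.9%, 23.8% and 32.4%, and 22.6% and 32.1% of cases in these comparisons. Slc20a1, a sodium-phosphate cotransporter that most cells have, rose by 2.98 ± 0.24 in IRI (adjusted p = 5.96e-08), while the proximal tubule cotransporter Slc34a3 fell by 0.91 ± 0.23 (adjusted p = 0.00362) and Slc20a2 rose by 0.81 ± 0.25 (adjusted p = 0.0111). Pth1r, the parathyroid hormone receptor, fell by 0.42 ± 0.15 in IRI (adjusted p = 0.0250). Slc34a1, the main phosphate transporter that FGF23 and Klotho act on, was -0.05 ± 0.14 in IRI and fell by 0.96 ± 0.14 in IRI+Hemin (adjusted p = 2.65e-05) and by 0.74 ± 0.14 in IPC+IRI (adjusted p = 3.02e-04). It also fell in Hemin without surgery, by 0.54 ± 0.14 (adjusted p = 0.00745), without overlap with Control. All called falls of Slc34a1 from Control cross scan days, and the day's part in them cannot be separated from the group's. Against Control, 1 of 8 proximal tubule markers was lower in IRI, 2 in Hemin, 3 in IPC+IRI and 5 in IRI+Hemin, with 0 higher in each. Their part in the change of Slc34a1 was not tested.

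Genes whose pattern over the 20 arrays was most like that of a member were Pcbd1 (r = 0.946) for Kl, Fam160a2 (r = 0.958) for Trpv6, Phf2 (r = 0.943) for Trpv5, Vat1 (r = 0.958) for Stc1, Sbf1 (r = 0.906) for Fgfr1 and Sdhd (r = 0.898) for S100g. For Vdr and Casr the highest values were 0.761 (Arid4a) and 0.802 (Gde1). Among the members, Calb1 and S100g had r = 0.73 and Trpv5 and Stc2 had r = -0.83, over arrays that share slides and scan days. Stc2 was well above background on only 2 of the 4 IRI arrays, all of which enter its r with Trpv5.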

How the data were processed

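Mouse kidney RNA (20 samples) was labelled with 1 dye and hybridised to Agilent arrays. The submitters' processing notes name Agilent Feature Extraction 9.5.3.1; the intensity values deposited are spot signals after background subtraction, with no scaling between arrays. The authors also deposited a log2 matrix of the same signal, in which 18.1% of values are blank. For 100% of its single-spot values, the log2 of the processed signal lay within 0.001, and it was used as an alternative.

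Of 43379 non-control spots (41174 probes), 1806 spot values with a software flag for uneven spots or for outliers among copies were left out. Values were averaged first per probe, then scaled to the array's 75th percentile, averaged per gene on the linear scale and turned into log2. A gene was tested with at most 1 missing value over 8 arrays and at least 3 of 4 arrays of either group well above background. All 20 arrays were fitted with limma 3.58.1 (R 4.3.3; the data.table package had version 1.17.8), with 5 group means and 15 residual degrees of freedom, and Benjamini-Hochberg adjustment within each comparison over all genes tested. No fold cutoff was applied. IRI+Hemin vs Hemin, IPC+IRI vs Hemin and the differences of probes within an array were added after the data were seen. SAM, the test of the study, was not run. The fit was tested on simulated data. Intervals of changes are 95% intervals.

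The members, pathway lists and tests were chosen with earlier results of these data known. Named genes are the 10 members, from each of 4 pathway lists up to 3 called genes with the largest change in IRI vs Control plus Cyp27b1, Cyp24a1, Pth1r, Slc34a1, Slc8a1 and Atp2b1, the gene with the highest correlation to a member (of 3 found), and the label checks Hmox1, Lcn2 and Havcr1. Slc12a3, one of the 6 distal markers, and the sum of markers without it were chosen after values were seen. The slide as a random block could not be fitted, since each group lies on 1 slide of its own. Each array's 75th percentile and the share of genes well above background (57.4% to 67.4%) are the measures of depth. Of the pathway genes, Atp2b4 is not on the array under that name. Promoter sequences are from RefSeq (GRCm38.p6), and probe positions from the array annotation (mm9).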

Additional observations from a re-analysis of the deposited data

Results flagged for a closer look

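Of 50 sets of 4 values (10 genes in 5 groups), 1 held a value far from the other 3: Casr in Hemin replicate 2, at -1.97 with the other arrays between -2.52 and -2.45. About 1 in 20 such sets holds one by chance.

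The probe of Kl that the annotation assigns to the secreted isoform, A_52_P112159, had an interaction of Hemin and IRI of -0.93 ± 0.25 (adjusted p = 0.0286 over all probes tested): the change with Hemin was 0.93 ± 0.18 without ischemia and 0.00 ± 0.18 with it. The other probe of Kl gave -0.32 ± 0.21 (adjusted p = 0.407). IRI+Hemin and Hemin were scanned on different days, and the part of the day in this interaction cannot be told apart from that of the groups.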

How the results depend on the processing

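The rises of Stc1 and Trpv6 in IRI vs Control, of Trpv6 in IRI+Hemin vs Control and the fall of Calb1 in IRI+Hemin vs Control were called under all 19 alternatives. Slide could not be separated from group, and dim genes such as Stc2 are limited by their signal over background. Kl depended on how its probes were joined, and in the deposited matrix its brighter probe is blank on 3 of 20 arrays. The cause of the other changes was not tested.

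With normexp background, the members called were 0 lower in IRI vs Control, 1 higher in IRI+Hemin vs Control, 0 higher and 2 lower in IPC+IRI vs Control, 0 higher in IRI+Hemin vs IRI, and 0 higher and 1 lower in Hemin vs Control. Log2 changes turned to 0.0123 (Stc2, IRI vs Control), -0.0434 (Casr) and -0.0691 (Stc1) in IRI+Hemin vs Control, -0.004 (Stc1, IPC+IRI vs Control), -0.18 (Casr, IRI+Hemin vs IRI), and -0.0468 (Trpv6) and 0.10 (Vdr) in Hemin vs Control. Without scaling between arrays, the members called were 0 lower in IRI vs Control, 4 higher in IRI+Hemin vs Control, 6 higher and 0 lower in IPC+IRI vs Control, 2 higher and 1 lower in IRI+Hemin vs IRI, 3 higher and 0 lower in IPC+IRI vs IRI, and 4 higher and 0 lower in Hemin vs Control. The median over all genes then lay at -0.05, 0.38, 0.35, 0.45, 0.41 and 0.62 in IRI vs Control, IRI+Hemin vs Control, IPC+IRI vs Control, IRI+Hemin vs IRI, IPC+IRI vs IRI and Hemin vs Control, and 36.7%, 77.5%, 75.5%, 91.7%, 91.2% and 94.9% of calls were higher, where the main setting gave 33.4% to 59.6%. Changes turned to 0.12 (S100g, IRI+Hemin vs Control), 0.0249 (Trpv5, IPC+IRI vs Control), 0.0103 (S100g, IRI+Hemin vs IRI) and 0.54 (Vdr, Hemin vs Control). Of calls, 57%, 46.1%, 48%, 46.4%, 49.7% and 54% were higher with normexp background, and 19.5%, 42.2%, 37.2%, 76.8%, 73.2% and 58.4% in the deposited matrix.

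Averaging log2 values over probes gave 1 higher and 0 lower in IPC+IRI vs Control and 1 lower in Hemin vs Control, and turned Kl to 0.0273 in IRI vs Control, 0.12 in IPC+IRI vs Control, 0.0912 in IPC+IRI vs IRI and 0.0644 in Hemin vs Control. The deposited matrix gave 1 higher and 1 lower in IRI+Hemin vs Control, 0 lower in IPC+IRI vs Control, 2 higher and 2 lower in IRI+Hemin vs IRI, 2 higher and 1 lower in IPC+IRI vs IRI, and 1 and 1 in Hemin vs Control. There Kl turned to 0.47 in IPC+IRI vs Control, 1.22 in IRI+Hemin vs IRI, 1.78 in IPC+IRI vs IRI and 0.58 in Hemin vs Control, and Vdr to 0.0473 in Hemin vs Control. Scaling by probes above background gave 2 lower in IRI vs Control, 2 lower in IPC+IRI vs Control and 1 higher in Hemin vs Control. No filter on dim genes gave 0 lower in IRI vs Control, and the strict filter gave 0 lower there and 0 higher in IRI+Hemin vs IRI and in IPC+IRI vs IRI, since Stc2 was not tested. A minimum of 2-fold gave 1 higher in IRI+Hemin vs Control, 1 higher and 0 lower in IPC+IRI vs Control, 2 lower in IRI+Hemin vs IRI, 0 lower in IPC+IRI vs IRI, and 1 higher and 0 lower in Hemin vs Control.

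With single arrays left out, the members called ran from 0 to 1 lower in IRI vs Control, 1 to 2 higher in IRI+Hemin vs Control (1 without Control replicate 2, where Stc1 lost its call), 1 to 2 lower in IPC+IRI vs Control (2 without Control replicate 2 or IPC+IRI replicate 1), 1 to 2 higher in IRI+Hemin vs IRI (2 without IRI replicate 4) and 1 to 2 higher in Hemin vs Control. The log2 fold change of Vdr Hemin vs Control, which was not called, ran from -0.101 to 0.0595, above 0 without Control replicate 2 or 4 or Hemin replicate 4. Same-numbered arrays correlated between -0.32 and 0.15 over the 6 comparisons, and the labels give no source for a pairing. In IRI vs Control the correlations ran from 0.0519 to 0.145 and 8 of 8 arrays correlated best with their own number, a hint from the data, and the block left the counts of members called there at 3 higher and 1 lower. With the replicate block, 1 member was higher in Hemin vs Control, where Trpv6 lost its call, and Trpv5 lost its call in IRI+Hemin vs Control.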
